A study of Mus musculus with 2 samples.

Results

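Apoe, Abca1, Abca4, Lpl, Gpihbp1, Scarb1, Cd36 and Lrp1 encode proteins that carry, export, hydrolyse or take up lipoprotein lipid and cholesterol. These 8 genes were chosen by name, with earlier results of these data known. All 8 were present among the 32285 genes of the matrices, and all 8 passed the filter on low counts. They were measured by single-cell RNA-seq in 2 libraries of choroid and retinal pigment epithelium (RPE) from wild-type mice of the ICR strain at 8 weeks of age. Each library pooled the tissue of 1 male and 1 female, so that neither sex nor single animals could be compared, and there was no treatment or mutant group. Dissociation used collagenase A (1 mg/ml, 2 h) and then trypsin (0.25%, 30 min), and 10000 cells per library were loaded on a droplet device that reads the 3′ ends of transcripts.

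Cholesterol moves between cells on lipoprotein particles. ABC transporters of the cell membrane load lipid onto apolipoproteins such as apolipoprotein E, lipases at the capillary wall release fatty acids from triglyceride-rich particles, and scavenger receptors and LDL-receptor family members take up particles or their lipid. The RPE lies between the photoreceptors, whose shed outer segments it engulfs, and the fenestrated capillaries of the choroid, and it is known to secrete lipoproteins towards the choroid and to take up lipid from it.

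A total of 8497 cells in library 1 and 13401 cells in library 2 had at least 1000 unique molecular identifiers (UMIs, which count molecules) and 500 genes with at most 20% mitochondrial UMIs. The medians were 7842 and 8253 UMIs per cell, the library totals were 91741168 and 149570817 UMIs, and library 2 held more cells than were loaded according to the labels. Scrublet marked 217 (2.55%) and 700 (5.22%) of the cells as doublets, which stayed in the main analysis, and 31 kept cell barcodes were shared by the libraries (0.365% and 0.231% of their cells). Each cell was assigned to the class with the most UMIs of 3 markers, at least 5 being required: Dcn, Col1a2 and Col3a1 for fibroblasts, Dct, Pmel and Mlana for melanocytes, Rpe65, Rgr and Rlbp1 for RPE, Cdh5, Pecam1 and Egfl7 for endothelial cells, Rgs5, Myh11 and Acta2 for mural cells, and C1qa, Csf1r and Cd68 for macrophages. The fibroblast class held 4095 and 6278 cells, the melanocyte class 1407 and 2249, the mural class (pericytes and smooth muscle) 1118 and 1713, the endothelial class 465 and 609, the macrophage class 430 and 866, and the RPE class 304 and 902, while 678 and 784 cells reached no class. Of 35 further markers that the assignment did not use, 34 were highest in the class they mark; Best1, a channel gene of the RPE, was near 0 throughout and highest in the macrophage class. Depth was uneven, with median UMIs per cell of 26254 and 19066 in the RPE class, against 6082 and 6181 in the mural class.

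UMIs were summed per class and library, giving 12 profiles. Levels are CPM, a gene's UMIs scaled to the same total in every profile after TMM scaling, given for library 1 and then library 2. Differences are log2 fold changes with their standard errors (SE) from edgeR's quasi-likelihood test with the library as a block, and p-values are Benjamini-Hochberg adjusted over all 15420 genes tested. A gene was called where the adjusted p was below 0.05 and the change at least 1 on the log2 scale. The libraries are separate pools of mice. The block removes shifts that all classes of a library share. The p-values therefore measure only how class differences vary between these 2 libraries, with the spread pooled over classes and moderated over genes.

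On the mouse build GRCm38 (GENCODE M21) the 8 genes, all protein coding, lie on 7 chromosomes. Apoe is at chr7:19696109-19699188 on the minus strand, Abca1 at chr4:53030787-53159895 on the minus strand, Abca4 at chr3:122044443-122180123 on the plus strand, and Lpl at chr8:68880491-68907448 on the plus strand. Gpihbp1 is at chr15:75596628-75599481 on the plus strand, Scarb1 at chr5:125277087-125341094 and Cd36 at chr5:17781690-17888801, both on the minus strand, and Lrp1 at chr10:127538161-127621148 on the minus strand. Abca4 overlaps 2 genes on the opposite strand, Lrp1 overlaps 1, and Scarb1 overlaps 1 on its own strand, Gm42633, with which it may share reads.

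Sequences upstream of the start are shown for the carrier Apoe and the exporters Abca1 and Abca4, whose highest classes were the macrophage, endothelial and RPE classes. They come from RefSeq (GRCm38.p6), which held entries for 5 of the 8 genes; Lpl, Gpihbp1 and Scarb1 are named only. Capitals mark matches to motifs searched on both strands: the LXR element, through which sterol-activated LXR receptors act and which is the longest run of capitals in the Abca1 line, the E-box (CACGTG), the TATA motif (TATAAA), the OTX motif (TAATCC, which lies on the other strand in both lines that hold it) and the GC box (GGGCGG). The lines give Abca1 at chr4:53159896-53160145 (minus strand), Abca4 at chr3:122044210-122044442 (plus strand) and Apoe at chr7:19699189-19699438 (minus strand). The last 17 bases of the Abca4 window before the RefSeq start are not shown, because they lie within the GENCODE gene, and the Apoe window is that of the most upstream of 3 RefSeq starts.
Abca1: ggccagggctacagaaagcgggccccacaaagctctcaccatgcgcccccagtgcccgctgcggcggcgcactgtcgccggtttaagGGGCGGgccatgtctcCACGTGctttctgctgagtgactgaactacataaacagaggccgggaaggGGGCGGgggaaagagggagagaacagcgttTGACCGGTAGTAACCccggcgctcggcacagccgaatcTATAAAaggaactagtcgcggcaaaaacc
Abca4: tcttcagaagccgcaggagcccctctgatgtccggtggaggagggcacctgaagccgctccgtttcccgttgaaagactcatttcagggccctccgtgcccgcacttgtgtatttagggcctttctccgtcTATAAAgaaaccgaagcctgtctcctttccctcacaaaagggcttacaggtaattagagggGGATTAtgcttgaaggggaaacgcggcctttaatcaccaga
Apoe: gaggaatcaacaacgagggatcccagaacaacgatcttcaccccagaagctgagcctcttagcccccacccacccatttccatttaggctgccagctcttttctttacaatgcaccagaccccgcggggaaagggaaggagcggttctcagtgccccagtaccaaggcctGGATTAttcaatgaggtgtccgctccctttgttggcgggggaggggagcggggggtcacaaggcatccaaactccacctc

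Positions are counted from the RefSeq start, with -1 the base before it. The LXR element was searched as a single long pattern that is fixed at nearly every base. This pattern stood at -67 to -53 of the Abca1 start, and was present in 2 of 32851 promoters of 250 bases (0.00609%). Few matches follow from such a strict pattern, so this share does not describe LXR elements in general. The share of promoters with looser LXR elements was not tested. Abca1 also had an E-box at -147, which 6.02% of promoters held, GC boxes at -163 and -97 (32.7% of promoters) and TATAAA at -29 (12.4%). The Abca4 window had TATAAA at -119 and the OTX motif at -58, and the Apoe window had the OTX motif at -80, which 6.25% of promoters held. The windows of the other 2 Apoe starts and of Lrp1, also called higher in RPE below, held no OTX motif. These matches describe letters and not bound sites.

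The 8 genes were spread over the classes. By mean CPM, Apoe was highest in the macrophage class, closely followed by the RPE class, Abca4 in the RPE class, Abca1, Gpihbp1 and Scarb1 in the endothelial class, Cd36 in the macrophage class, Lpl in the mural class and Lrp1 in the fibroblast class. The melanocyte class was highest for none of the 8.

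**Figure D1:**
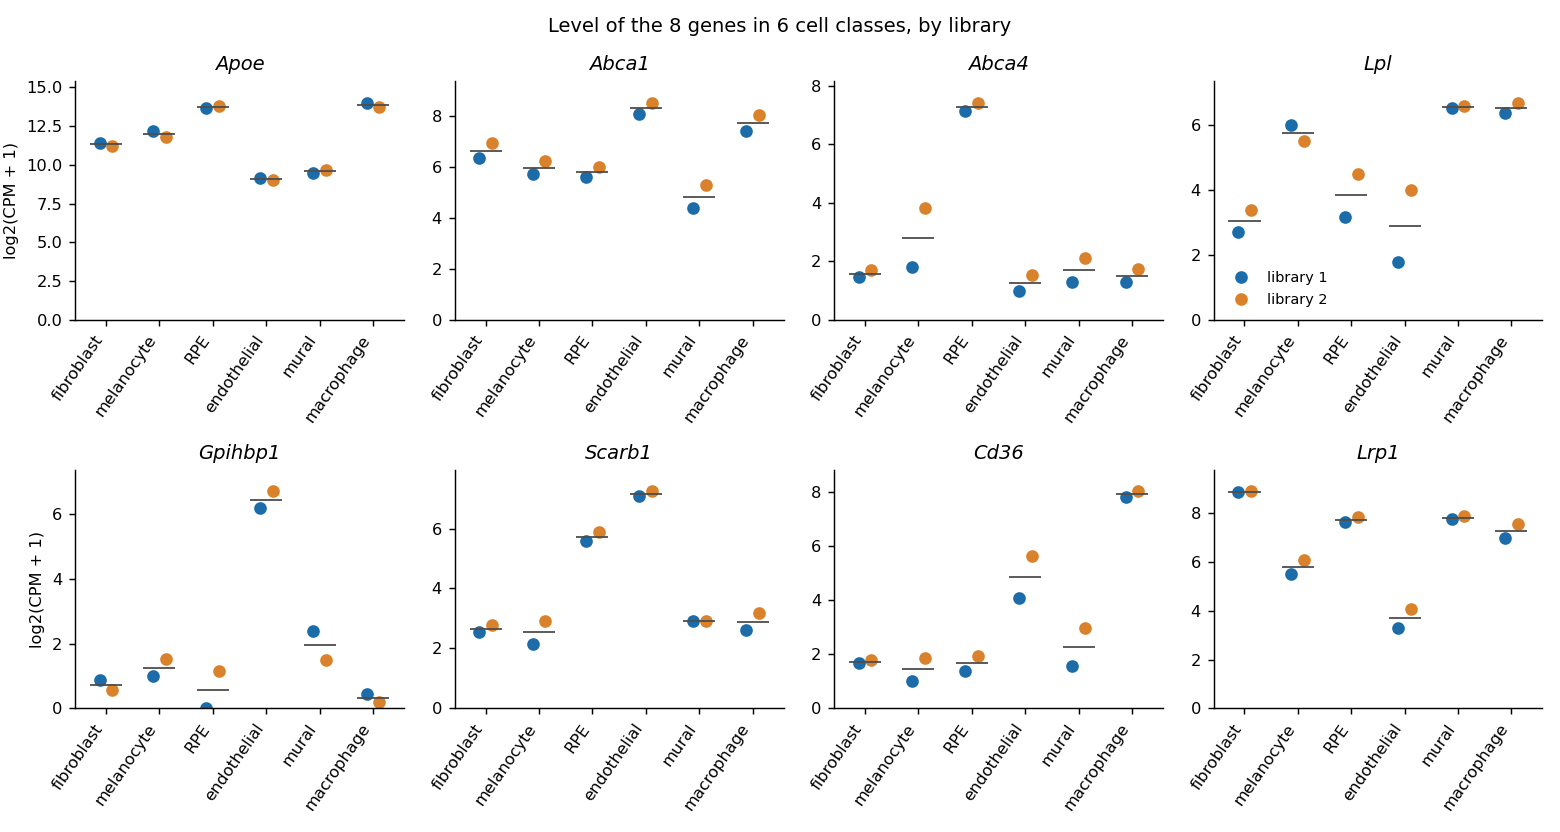
Levels of the 8 genes as log2(CPM + 1) in each of the 6 classes; each point is 1 library and the grey line is the mean of both. The points of Lrp1 in fibroblasts (466 and 477 CPM) nearly coincide, while those of Lpl in endothelial cells (2.40 and 15.01 CPM) lie apart.

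Each class was compared with the equal mean of the other 5. In the RPE class 4 of the 8 genes were called higher (Apoe, Abca4, Scarb1, Lrp1) and 1 lower (Cd36), with 26.1% of all genes called higher and 24.6% lower. In the endothelial class 4 were higher (Abca1, Gpihbp1, Scarb1, Cd36) and the other 4 lower, against 15.4% and 20.8% of all genes. In the macrophage class 4 were higher (Apoe, Abca1, Lpl, Cd36) and 1 lower (Scarb1), against 19.5% and 21.3%. In the mural class 2 were higher (Lpl, Lrp1) and 4 lower (Apoe, Abca1, Scarb1, Cd36), against 14.6% and 10.4%. In the fibroblast class 1 was higher (Lrp1) and 4 lower (Abca4, Lpl, Scarb1, Cd36), against 18.2% and 8.74%. In the melanocyte class 1 was higher (Lpl) and 3 lower (Scarb1, Cd36, Lrp1), against 14.5% and 11.3%. The median change of the 8 genes was 0.97 on the log2 scale in the macrophage class, against -0.17 over all genes, and -1.64 in the fibroblast class, against -0.01. When cells had to hold at least 80% of their marker UMIs in 1 class, several called values grew by over 1.5-fold, among them Gpihbp1 in endothelial cells (8.56, against 6.66 in all cells), Cd36 in macrophages (6.91, against 5.90) and Lrp1 in endothelial cells (-5.00, against -3.88).

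**Figure D2:**
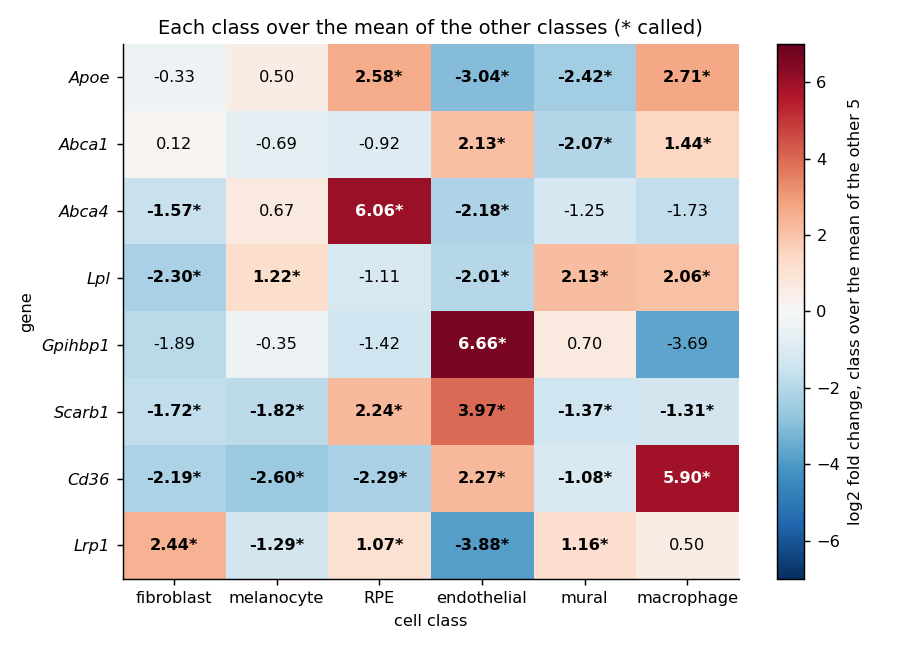
Log2 fold change of each gene (down) in each class (across) over the mean of the other 5 classes, from the edgeR fit; red is higher, blue is lower and asterisks mark called values. The highest values are those of Gpihbp1 in endothelial cells (6.66), Abca4 in RPE (6.06) and Cd36 in macrophages (5.90).

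Between pairs of classes, all 8 genes were called between the melanocyte and endothelial classes, where 42.7% of all genes were called. The endothelial class had the most members called over its pairs, with 7 of 8 called against the RPE class (54.9% of all genes) and 6 of 8 against the fibroblast (36.9%), mural (32.3%) and macrophage (38.5%) classes. The RPE class had 5 called against the melanocyte (39.8%) and macrophage (54.3%) classes and 4 against the fibroblast (52.8%) and mural (53.0%) classes, the last 2 shares being near those of all genes. The macrophage class had 5 called against the fibroblast (45.6%) and melanocyte (43.2%) classes and 3 against the mural class (43.8%). The mural class had 4 called against the fibroblast (19.0%) and melanocyte (35.1%) classes, and the melanocyte and fibroblast classes differed in 3 (35.5%). When the classes were ordered by mean level within each gene, 14 of the 40 steps from one class to the next lower were called and 26 were not.

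Apoe, the main apolipoprotein of tissue lipid transport, reached 16458 and 13376 CPM in the macrophage class and 13266 and 14261 CPM in the RPE class. The melanocyte class had 4737 and 3583 CPM, the fibroblast class 2768 and 2377, the mural class 715 and 818, and the endothelial class 556 and 516. The top 2 classes overlapped, and every other class lay below both. The difference of the macrophage class from the RPE class did not pass the test (log2 0.11, SE 0.15, adjusted p = 0.539), whereas the RPE class was higher than the melanocyte class by 1.74 (adjusted p = 7.88e-07) and the fibroblast class higher than the mural class by the same 1.74 (adjusted p = 2.57e-06). Against the other classes Apoe was higher by 2.71 in macrophages (SE 0.10, adjusted p = 7.21e-11) and by 2.58 in RPE (SE 0.10, adjusted p = 1.31e-10).

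Apoe UMIs were present in 100% (304 of 304) and 99.9% (901 of 902) of RPE cells and in 90.7% and 96.4% of macrophage-class cells. Melanocytes were as often positive as RPE cells, at 99.8% and 99.96%, and fibroblasts reached 92.9% and 95.1%. In free RNA, taken as barcodes with at most 100 UMIs, Apoe made up 4830 and 5646 CPM. In the endothelial class 74.2% and 81.4% of cells had an Apoe UMI, and in the mural class 47.6% and 62.2%. From the share of free RNA estimated in these classes, 17.6% and 40.7% of the endothelial Apoe and 21.6% and 85.5% of the mural Apoe would be free RNA. The low Apoe levels of both classes thus lay partly within background, and the mural estimate differed widely between the libraries. Against the other classes mural Apoe fell by 2.42, with -3.55 after free RNA was subtracted and -3.41 with the purity filter. The estimate rests on the summed UMIs of a list of rod genes.

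Abca1 exports cholesterol and phospholipid to lipid-poor apolipoproteins. It was highest in the endothelial class at 273 and 367 CPM, followed by the macrophage class at 171 and 263 CPM. The fibroblast class had 79.9 and 122 CPM, the melanocyte class 52.2 and 73.6, the RPE class 47.1 and 62.6, and the mural class 19.8 and 38.1. Within each library the order was the same for all 6 classes. Against the other classes Abca1 was higher by 2.13 in the endothelial class (SE 0.09, adjusted p = 5.16e-10) and by 1.44 in the macrophage class (SE 0.10, adjusted p = 4.48e-08), and lower in the mural class, where it fell by 2.07 (SE 0.13, adjusted p = 3.31e-08).

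The endothelial class exceeded the macrophage class by 0.58 (SE 0.14, adjusted p = 0.00310), which is under 2-fold and was not called. Abca1 was higher in library 2 than in library 1 in all 6 classes, by 1.33 to 1.92 times, and without the library block the same difference had an adjusted p of 0.245. Abca1 UMIs were found in 67.3% and 70.3% of endothelial cells (exact 95% intervals 62.8% to 71.6% and 66.5% to 73.9%, which cover counting error only). Melanocytes did not differ from RPE past the threshold (0.19, adjusted p = 0.247), and the share of positive cells in the RPE class, 45.4% and 52.8%, dropped to 9.31% and 14.5% when each cell was thinned to 3000 UMIs.

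Abca4 moves retinoid and phospholipid compounds across membranes in photoreceptors and the RPE, and had 140.0 and 171 CPM in the RPE class. In every other class it stayed at or below 13.1 CPM, which was the level of melanocytes in library 2. The RPE class was higher than the others by 6.06 (SE 0.28, adjusted p = 3.16e-07) and higher than the melanocyte class by 4.49 (SE 0.44, adjusted p = 5.67e-05; 3.65 without library 1 and 5.68 without library 2). In the RPE class 80.6% and 79.4% of cells had an Abca4 UMI (exact intervals 75.7% to 84.9% and 76.6% to 82.0%), and 25.5% and 37.7% did after thinning to 3000 UMIs.

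In the melanocyte class Abca4 was at 13.1 CPM in library 2 and 2.47 CPM in library 1. Markers of the RPE class moved the same way there: Rpe65 was at 49.3 and 5.84 CPM, Rgr at 90.5 and 10.8, Rlbp1 at 60.0 and 9.37, and Ttr at 2099 and 244 CPM, without TMM scaling, in melanocytes of libraries 2 and 1. The summed ciliary epithelial markers Optc, Pcp4 and Pax6 also moved this way, at 122.6 and 36.8 CPM in melanocytes of libraries 2 and 1. The part of RPE or ciliary epithelial RNA in the melanocyte Abca4 level was not tested. Abca4 in the macrophage class, at 1.45 and 2.32 CPM, was below what free RNA alone would give (286% and 125% of the observed level). The lower Abca4 calls in endothelial cells and fibroblasts were lost with free RNA subtracted, at -0.998 (adjusted p = 1) and 0.23 (adjusted p = 0.920), and with no filter on low counts (adjusted p = 0.0644 and 0.0701).

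Lpl, the lipase that hydrolyses triglyceride of circulating lipoproteins, was at 91.2 and 94.6 CPM in the mural class, 80.4 and 101 CPM in the macrophage class and 62.3 and 44.0 CPM in the melanocyte class. These 3 classes were each called higher than the rest, by 2.13 (SE 0.39, adjusted p = 0.00433) in the mural class, 2.06 (SE 0.41, adjusted p = 0.00513) in the macrophage class and 1.22 (SE 0.41, adjusted p = 0.0457) in the melanocyte class. Neither the mural over the macrophage class (0.06, SE 0.56, adjusted p = 0.940) nor the macrophage over the melanocyte class (0.70, adjusted p = 0.329) passed the test. The melanocyte call was lost in 5 alternative analyses, and its size was 0.53 without library 1 and 2.04 without library 2, while the mural value was 2.74 without library 2. The other classes were lower and varied between libraries, with 7.91 and 21.5 CPM in RPE, 2.40 and 15.01 in endothelial cells and 5.48 and 9.39 in fibroblasts. Lpl UMIs were found in 34.9% and 39.5% of mural cells (exact intervals 32.1% to 37.8% and 37.1% to 41.8%) and in 1.72% and 3.94% of endothelial cells.

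Gpihbp1 anchors this lipase to the capillary wall and brings it across the endothelium. It was at 70.7 and 102 CPM in the endothelial class and no higher than 4.27 CPM in any other class, so no other class reached the endothelial range. The endothelial class was higher than the others by 6.66 (SE 0.35, adjusted p = 1.45e-06) and higher than the mural class, the next in order, by 4.96 (SE 0.56, adjusted p = 1.84e-04; 5.74 without library 1 and 3.96 without library 2). Lpl and Gpihbp1 were thus called in opposite directions in the endothelial class, where Lpl fell by 2.01 (SE 0.57, adjusted p = 0.0226; -1.34 without library 1 and -3.50 without library 2).

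Gpihbp1 UMIs were found in 20.9% and 26.3% of endothelial cells (exact intervals 17.2% to 24.8% and 22.8% to 30.0%). Outside the endothelial class at most 13 cells per class and library were positive, and single cells carried much of the signal, with 29 of the 33 mural UMIs of library 1 in 1 cell. None of 304 RPE cells of library 1 had a Gpihbp1 UMI, which allows a share of cells with a UMI, not of cells expressing the gene, of up to 0.987%.

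**Figure D3:**
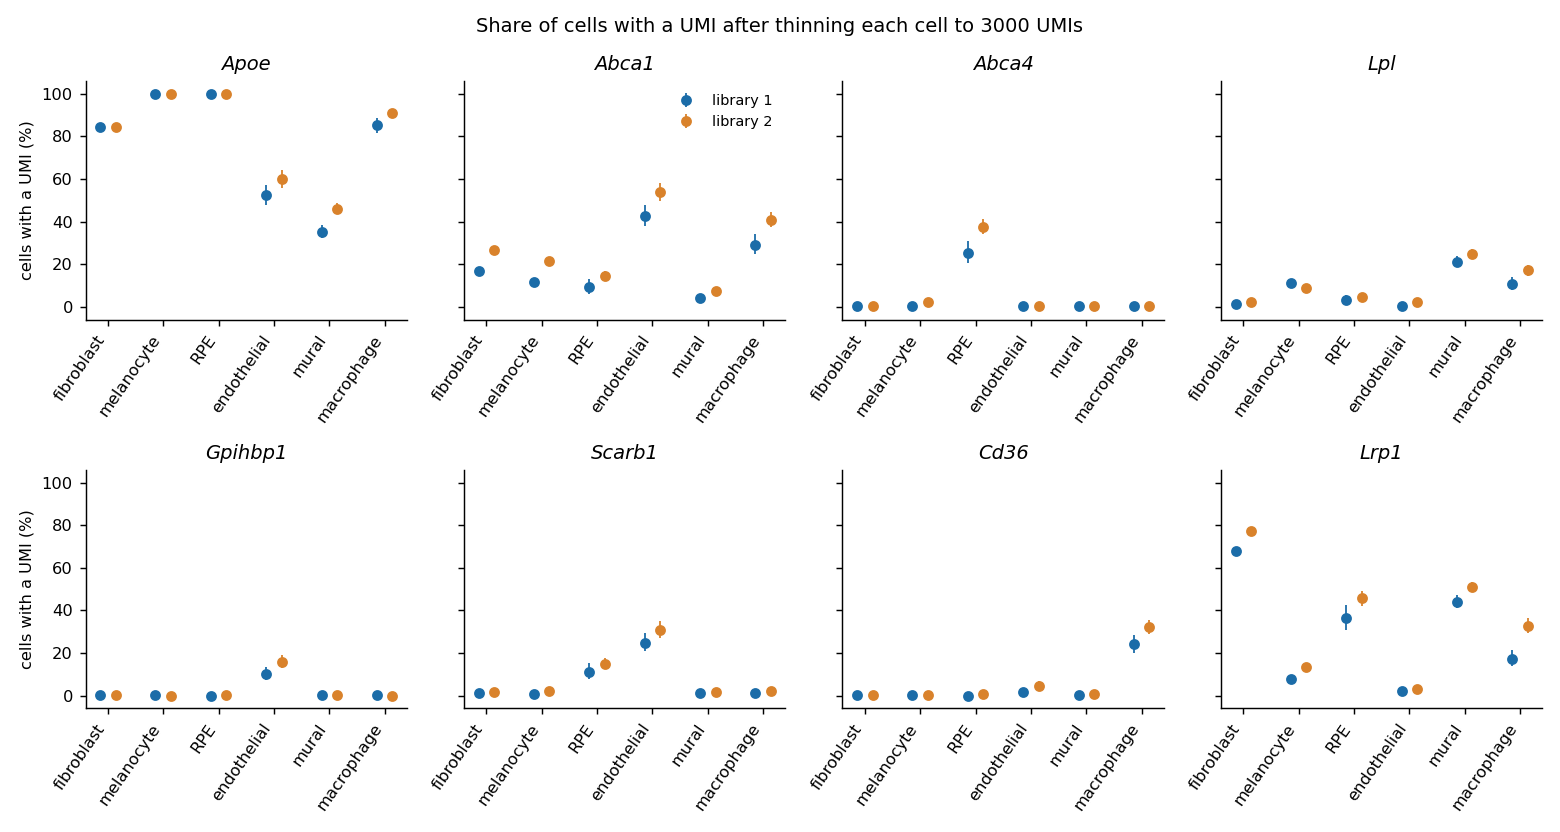
Percentage of cells with at least 1 UMI of each gene, by class and library, after thinning every cell to 3000 UMIs, with exact 95% intervals that cover counting error only. Apoe reaches nearly every RPE and melanocyte cell, whereas Gpihbp1 is positive in 10.1% and 15.7% of endothelial cells and is near 0 elsewhere.

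Scarb1, a receptor for high-density lipoprotein that takes up cholesteryl ester and carotenoids, was at 134 and 149.9 CPM in the endothelial class and 46.9 and 58.1 CPM in the RPE class. The other 4 classes lay between 3.45 and 8.05 CPM, and the 3 levels were separate in both libraries. The endothelial class was higher than the RPE class by 1.44 (SE 0.17, adjusted p = 5.47e-06), and the RPE class was higher than the mural class by 3.01 (SE 0.20, adjusted p = 3.14e-08). Scarb1 UMIs were found in 56.1% and 55.8% of endothelial cells and 57.6% and 59.6% of RPE cells, but after thinning to 3000 UMIs in 24.9% and 31.0% of endothelial cells and 11.0% and 14.8% of RPE cells. The unthinned shares of the 2 classes were close, whereas the thinned shares were higher in endothelial cells in both libraries.

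Cd36, a scavenger receptor that binds oxidised lipoproteins and long-chain fatty acids, was at 223 and 258 CPM in the macrophage class and 16.00 and 49.0 CPM in the endothelial class. All other classes were at or below 6.88 CPM. The macrophage class was higher than the endothelial class by 3.03 (SE 0.36, adjusted p = 1.28e-04; 2.29 without library 1 and 3.74 without library 2), and the endothelial class was higher than the mural class by 2.79 (SE 0.42, adjusted p = 6.42e-04). In the RPE class Cd36 was at 1.63 and 2.84 CPM and fell by 2.29 against the other classes (-4.42 with doublets left out). Its lower call in the mural class was lost in 6 alternative analyses. Cd36 UMIs were found in 39.8% and 48.6% of macrophage-class cells (exact intervals 35.1% to 44.6% and 45.2% to 52.0%), so that most cells of the class with the highest level had none at this depth.

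The endothelial Cd36 signal sat in few cells. Only 16 of 465 cells in library 1 and 43 of 609 in library 2 were positive, and the 10 cells with the most held 94.0% and 59.1% of the endothelial Cd36 UMIs. Among the positive cells 62.5% and 65.1% had Gpihbp1, against 19.4% and 23.3% of the Cd36-negative endothelial cells, and 56.2% and 72.1% had Fabp4, a fatty acid carrier of capillary endothelium, against 13.4% and 11.7%. Lpl UMIs were found in 12.5% and 48.8% of the positive cells, against 1.34% and 0.530% of the negative ones. In library 2, 21 of the 24 endothelial cells with Lpl had Cd36, and in library 1, 2 of 8 did. Macrophage markers were also more frequent in the Cd36-positive cells, with Csf1r in 8 of the 16 positive cells of library 1 and 25.6% in library 2, against 0.668% and 1.77% of negative cells, Cd68 in 37.5% and 20.9%, against 3.79% and 3.89%, and C1qa in 18.8% and 16.3%, against 1.34% and 3.36%. These cells had median UMI counts of 17232 and 14810, against 8342 and 7642.5 in the negative cells, and 2 and 5 of them were marked as doublets. The part of depth and of admixed macrophage RNA in these shares was not tested.

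Lrp1, a large endocytic receptor for apolipoprotein E-rich remnants and many other ligands, was at 466 and 477 CPM in the fibroblast class. The mural class had 215 and 236 CPM, the RPE class 197 and 233, the macrophage class 126 and 188, the melanocyte class 44.8 and 66.8, and the endothelial class 8.80 and 16.1. Fibroblasts exceeded the mural class by 1.07 (SE 0.17, adjusted p = 3.20e-04), a difference that was 0.96 without library 1 and 1.08 without library 2, and the mural over the RPE class did not pass the test (0.08, adjusted p = 0.706). In the endothelial class, lowest in both libraries, Lrp1 fell by 3.88 against the other classes (SE 0.19, adjusted p = 1.32e-09). Lrp1 UMIs were found in 87.6% and 92.9% of fibroblast-class cells and in 6.02% and 11.3% of endothelial cells. From the estimated share of free RNA, 44.7% and 63.0% of the endothelial Lrp1 would be free RNA. With free RNA subtracted the endothelial difference was -4.99. Among the 3 uptake receptors, the endothelial class thus had the highest level of Scarb1, the next to highest of Cd36 and the lowest of Lrp1.

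Cells were split further by markers into 16 subclasses, and each was compared with the mean of the other subclasses of its class in 1 fit over 14292 genes. The endothelial beds held 345 and 452 capillary, 84 and 104 venous and 21 and 36 arterial cells. In the capillary bed 3 of the 8 genes were called (7.03% of all genes). Scarb1 was at 150.1 and 171 CPM in capillary cells, against 82.1 and 51.4 CPM in venous and 42.8 and 58.5 CPM in arterial cells, a difference of 1.47 (SE 0.24, adjusted p = 9.50e-05). Gpihbp1 was at 85.4 and 120.0 CPM in capillary cells and 17.7 and 13.6 CPM in venous cells, with no UMI in arterial cells (adjusted p = 0.00700). A floor of 3 UMIs over both libraries was 5.73 CPM in arterial cells without TMM scaling, and pooled capillary Gpihbp1 was 20.1 times that floor. The floor treats UMIs as independent, whereas 10 cells held 94.0% and 59.1% of endothelial Cd36 UMIs and 100% and 78.1% of Lpl UMIs. Ratios to the floor are therefore not lower bounds. Cd36 was at 18.2 and 53.7 CPM in capillary cells and 11.4 and 22.0 CPM in venous cells, again with no arterial UMI (adjusted p = 0.0314). Pooled capillary Cd36 was 7.46 times the same floor. Fitted sizes for Gpihbp1 and Cd36 are not given because they depend on the prior count of the arterial zeros. The Cd36 call was lost with DESeq2 size factors, with doublets left out and with a purity filter (adjusted p from 0.0642 to 0.0866), and the Gpihbp1 call with the DESeq2 test (adjusted p = 0.125). Lpl was at 2.99 and 18.2 CPM in the capillary bed and was not called there (adjusted p = 0.0780). It had UMIs in no arterial or venous cell, where the floors were 5.73 and 1.83 CPM. Pooled capillary Lpl was 2.29 and 7.20 times these floors. These Lpl ratios rest on library 2, which gave 137 of the capillary UMIs, against 15 in library 1.

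Abca1 and Apoe were lowest in arterial cells. In venous cells Abca1 was at 283 and 494 CPM and Apoe at 1071 and 762 CPM, and both were called higher than the mean of the other beds (1.13, adjusted p = 2.64e-05, and 1.36, adjusted p = 4.60e-04; 3.64% of all genes called). Capillary Abca1 was at 289 and 375 CPM, so that the capillary and venous beds overlapped and venous Abca1 was the higher in library 2 only. In arterial cells Abca1 was at 78.4 and 105 CPM and Apoe at 168 and 322 CPM, and both were called lower than the mean of the other beds, where Abca1 fell by 1.97 (adjusted p = 1.31e-07) and Apoe by 1.44 (adjusted p = 9.30e-04), with 5.46% of all genes called. Without library 2 the arterial Apoe value was -2.21. With free RNA subtracted the Apoe differences were larger, at 2.12 in venous and -2.23 in arterial cells, but no longer passed the test (adjusted p = 0.334 and 0.392), and the venous Abca1 call was lost without the library block (adjusted p = 0.123).

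**Figure D4:**
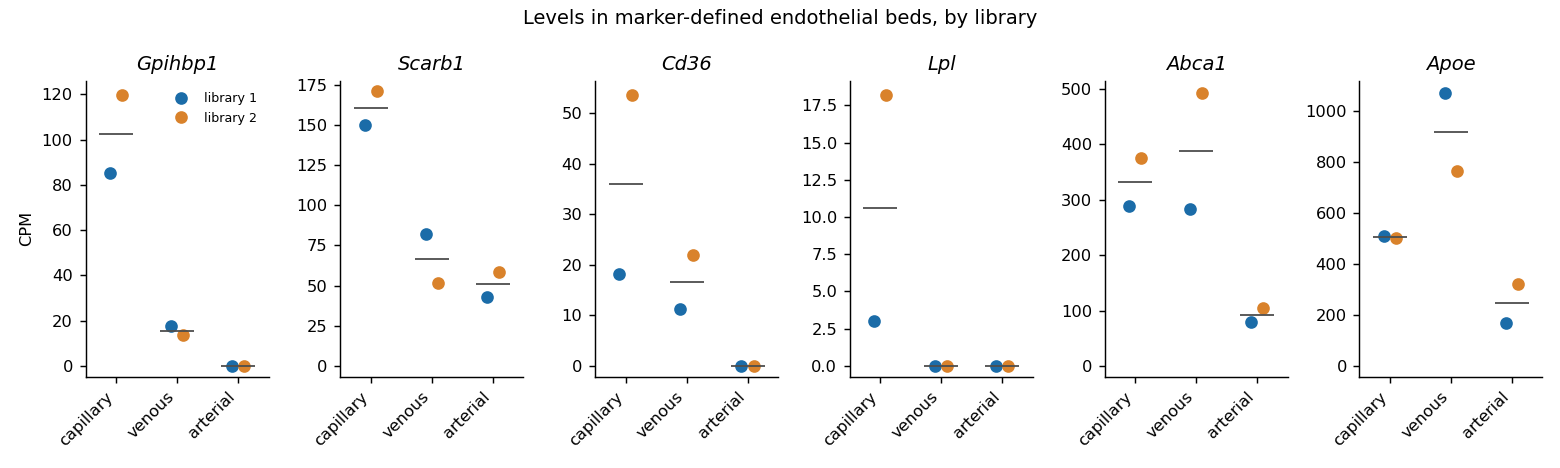
CPM of 6 of the genes in capillary, venous and arterial endothelial cells; each point is 1 library and the grey line is the mean of both. Gpihbp1 and Scarb1 are highest in capillary cells in both libraries, whereas Apoe is highest in venous cells and lowest in arterial cells.

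In the mural class Lrp1 was at 277 and 295 CPM in pericytes, against 112 and 125 CPM in smooth muscle, a difference of 1.27 (SE 0.18, adjusted p = 5.52e-06), with 11.8% of all genes called. Lpl did not pass the test between them (0.66, adjusted p = 0.323). No member was called by edgeR or DESeq2 between the macrophage subclasses, where Abca1 and Cd36 were the 2 with an unadjusted p below 0.05. Cd36 was at 435 and 379 CPM in Lyve1-type and 195 and 239 CPM in MHC2-type cells (adjusted p = 0.209). None was called by edgeR between the melanocyte subclasses, where 2, Abca4 and Lpl, had an unadjusted p below 0.05 and were called by DESeq2. Lpl was at 70.2 and 51.2 CPM in the Tyrp1-type and 17.1 and 15.6 CPM in the Syt4-type cells (adjusted p = 0.0895). The groups did not overlap in either of these comparisons, but with 2 libraries per group this is no test. Shares of all genes without overlap, with such an unadjusted p or called by DESeq2 are not given for comparison.

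Among fibroblast subclasses, named by their markers, Apoe was called higher in the Tfpi2-Tcf21 subclass (4655 and 3640 CPM, 1.20, adjusted p = 1.66e-05, with 16.0% of all genes called) and in the Cxcl5-Csf3-Il11 subclass (1.13, adjusted p = 1.47e-04, with 4.30% called), and with free RNA subtracted the differences were of similar size, 1.27 and 1.24, but did not pass the test (adjusted p = 0.253 and 0.412). Lpl was called higher in the Pi16-Dpt-Clec3b subclass at 23.2 and 36.2 CPM (2.35, SE 0.39, adjusted p = 8.19e-04, with 3.53% called). Abca1 fell by 1.00 in the Angptl7-Cilp2 subclass, at 36.1 and 64.1 CPM (adjusted p = 7.87e-06, with 10.8% called), a size just at the threshold. Calls of Abca4 in the Kera-Thbs4 subclass (2.06, adjusted p = 0.0450, with 5.09% called) and of Gpihbp1 in the Tfpi2-Tcf21 subclass (4.72, adjusted p = 0.0305) rested on few molecules. Gpihbp1 had 24 and 2 UMIs there, 23 of them in 1 cell, and its value was 0.17 without library 1 and 3.85 without library 2. Abca4 in Kera-Thbs4 cells turned to -0.87 when doublets were left out, and was 0.83 without library 2.

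Beside the 8 genes, 103 other genes of lipoprotein and sterol handling were listed in 8 groups, of which 93 passed the filter. In the RPE class 46 of the 93 (49.5%) were called higher and 21 (22.6%) lower, against 26.1% and 24.6% of all genes. Of the 22 sterol synthesis and SREBP genes 16 were higher and 0 lower in RPE and 10 were higher and 0 lower in melanocytes, while 1 was higher and 14 were lower in the endothelial class and 0 were higher and 11 lower in the macrophage class. Sqle, which encodes squalene epoxidase, was at 131 and 81.9 CPM in RPE, against 4.48 and 5.15 CPM in endothelial cells, and Hmgcs1, which acts early in the same route, at 87.1 and 88.6 CPM in RPE, against 15.04 and 21.03 CPM in endothelial cells. Both examples, and Abcg1, Nr1h3 and Nr1h2 among the other groups, were picked after their values were seen.

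In the endothelial class 18 of the 93 (19.4%) were higher and 38 (40.9%) lower, against 15.4% and 20.8% of all genes. In the macrophage class 25 (26.9%) were higher and 25 (26.9%) lower, against 19.5% and 21.3%, and in the melanocyte class 25 (26.9%) were higher and 14 (15.1%) lower, against 14.5% and 11.3%. The mural class had 15 (16.1%) higher and 20 (21.5%) lower, against 14.6% and 10.4%, and the fibroblast class 14 (15.1%) and 13 (13.98%), against 18.2% and 8.74%. Abcg1, an exporter that passes cholesterol to mature high-density lipoprotein, was called higher in the same classes as Abca1, at 60.3 and 71.9 CPM in endothelial cells (3.69, SE 0.14, adjusted p = 1.52e-10) and 25.4 and 53.2 CPM in macrophages (2.78, SE 0.16, adjusted p = 1.02e-08). Nr1h3, which encodes the sterol sensor LXRα, was higher in macrophages at 22.1 and 19.2 CPM (2.70, adjusted p = 1.57e-08) but lower in the endothelial class, where it fell by 1.42 (adjusted p = 2.45e-04). Nr1h3 was also called higher in the mural class, where Abca1 was lowest. Nr1h2, the other LXR gene, was called higher in the endothelial class.

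The 3 listed genes furthest above the mean of the other classes are given for each class, with log2 fold changes in brackets. In RPE these were Lrp2, an endocytic receptor of the Lrp1 family, at 59.5 and 78.0 CPM (7.52), Apoc3, an apolipoprotein that inhibits Lpl, at 11.0 and 8.42 CPM, and the nuclear receptor gene Ppara at 5.93 and 6.46 CPM (4.90). In macrophages they were the scavenger receptor genes Msr1 at 172 and 216 CPM (7.21) and Stab1 at 141 and 186 CPM (4.62), and Apoc2, the activator of Lpl, at 48.5 and 26.6 CPM (5.90). In endothelial cells they were Fabp4 at 198 and 479.9 CPM (4.65), the oxidised LDL receptor gene Olr1 at 31.8 and 3.62 CPM (4.50), which differed widely between libraries, and Stab1 at 148 and 147 CPM (4.45). Fibroblasts had Apod at 506 and 406 CPM (4.97), Abca8a at 11.9 and 18.4 CPM (3.23) and the endothelial lipase gene Lipg at 7.86 and 8.33 CPM (3.15). Melanocytes had the fatty acid carrier gene Fabp3 at 697 and 362 CPM (5.80), the hepatic lipase gene Lipc at 1.78 and 1.32 CPM (5.19) and Ppara at 2.13 and 2.77 CPM (3.30). The mural class had Abca9 at 31.1 and 50.3 CPM (2.94), Cav1 at 148 and 122 CPM (2.79) and Pmvk, of the sterol synthesis route, at 203 and 101 CPM (2.72). Abca9 had a higher mean still in macrophages (57.6 CPM), and Cav1 in endothelial cells (167 CPM).

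**Figure D5:**
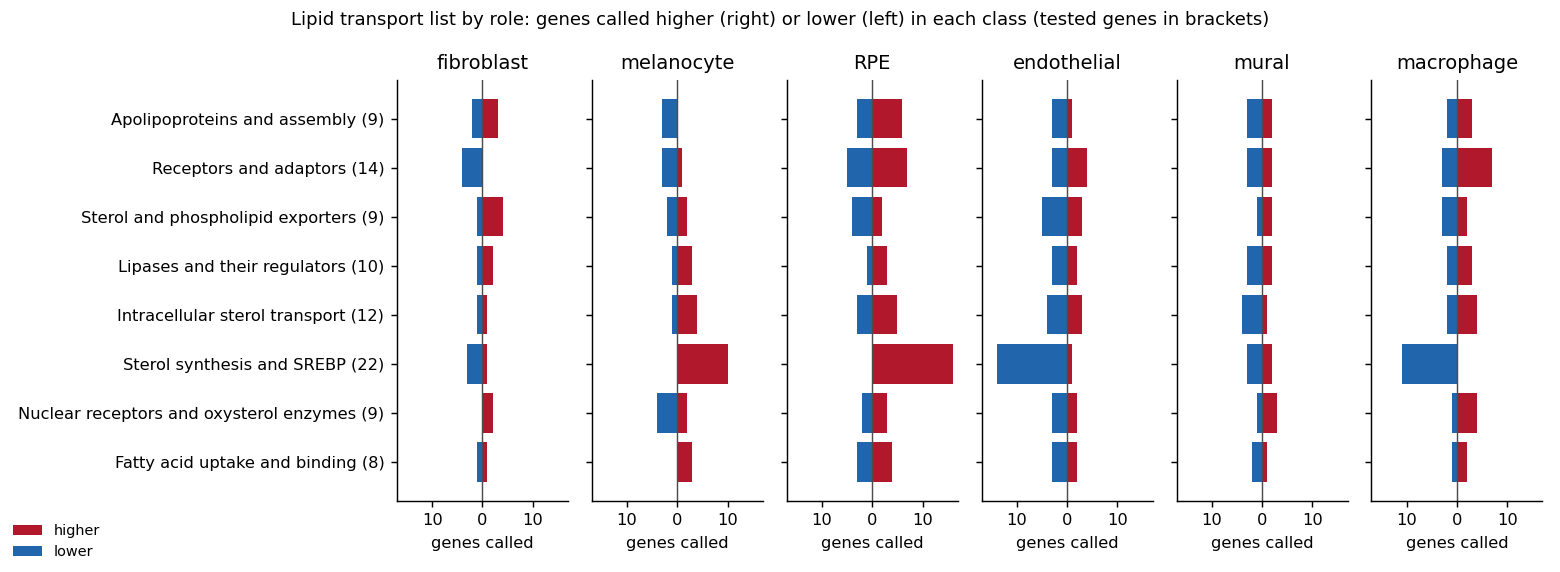
Number of listed genes called higher (red, right) and lower (blue, left) in each class over the mean of the other classes, by group of genes, with the number tested in brackets. Sterol synthesis genes are higher in RPE (16 of 22) and lower in endothelial cells (14 of 22).

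The genes whose levels over the 12 profiles were most like those of a member were described by Pearson's r of log2 CPM among 7916 genes, and profiles of one library share its depth and preparation. Apoe was most like Snx12, Naaa and Npc2 (r from 0.97 to 0.98), the last of which encodes a lysosomal cholesterol carrier. Abca4 was most like Cltrn, Ttr and Col9a3 (r from 0.99 to 0.995), and Cd36 most like Actr3, Arhgap17 and Lcp1 (r from 0.97 to 0.98). Abca1 was most like Topbp1, Tmcc1 and Dock4 (r from 0.94 to 0.97), Scarb1 most like Prkab1, Pitpnc1 and Nrbp1 (0.93 to 0.94), and Gpihbp1 most like Adgrf5, Ecscr and Trp53i11 (0.93 to 0.94). Lrp1 was most like Isoc1, Nptn and Sdc4 (0.91 to 0.92), and Lpl had the weakest matches, Pacsin2, Trpv2 and Hccs (0.89 to 0.91). Between members, Abca1 and Cd36 had r of 0.74, Gpihbp1 and Lrp1 -0.76, and Gpihbp1 and Apoe -0.81.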

How the data were processed

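Single-cell RNA-seq of dissociated choroid and RPE was measured in 2 libraries of wild-type mice. Per the labels' protocols, cells were passed through a 40 µm filter and captured with the 10x Genomics 3′ v3.1 chemistry. The authors deposited raw UMI counts per gene for all barcodes, before any selection of cells. Per the file headers the matrices were written by Cell Ranger 4, whereas the submitters' processing notes name Cell Ranger 2.1.1 and the build mm10. Which gene annotation was counted is not given in these sources.

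Cells were filtered, assigned to classes and summed per class and library as stated in the results. Members, gene lists, subclasses and rules for named genes were chosen with earlier results of these data known. The rule for named genes took all 8 members, and from the list the 3 genes per class with the largest fold among those called higher. Sums were tested with edgeR 4.0.16 (limma 3.58.1, R 4.3.3; TMM, filterByExpr, robust quasi-likelihood). The library entered as a block because the classes of 1 library come from the same mice. Class comparisons share profiles with each other. Scrublet in scanpy 1.11.5 marked doublets, and DESeq2 1.42.0 was an alternative test. Shares of positive cells have exact Clopper-Pearson intervals at 95%, and thinned shares leave out cells under 3000 UMIs. Free RNA was 4.90% and 4.11% of all UMIs, and its share per class was estimated from rod genes. Positions were read from GENCODE M21, matched by 32158 of 32285 gene IDs (99.6%). On simulated data for the RPE comparison over 14470 genes, 96% of genes changed 2-fold and 100% of those changed 4-fold had an adjusted p below 0.05. These shares leave out the size that a call also needs. The median log2 size of the genes changed 2-fold was 1.00, right at that threshold. The simulation gave all genes the same spread, no library difference, and changes only in genes above a minimum expected count. Its shares therefore do not carry over to members with larger SEs, such as Lpl, Gpihbp1 and Abca4. Alternatives were DESeq2 size factors or test, no filter on low counts, no library block, other filters on cells, classes and doublets, other cell types left out, free RNA subtracted and each library left out.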

Additional observations from a re-analysis of the deposited data

Results flagged for a closer look

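The 678 and 784 cells that reached no class entered no comparison, yet 7 of the 8 genes had UMIs there above the limit that a count of 0 allows. In CPM without TMM scaling, for library 1 and library 2, Apoe was at 2369 and 2541, Lrp1 at 117 and 101, and Abca1 at 32.5 and 40.0. Cd36 was at 15.4 and 43.4 CPM, Scarb1 at 10.6 and 8.99, Abca4 at 6.80 and 29.2, and Lpl at 2.96 and 11.5. Gpihbp1 had no UMI in either library. Abca4, Cd36 and Lpl were several-fold higher in these cells of library 2 than of library 1, with no test of that difference.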

How the results depend on the processing

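The libraries give 2 replicates, and a fit without either has no residual degrees of freedom and hence no test. Among 53 called values, 25 moved by over 1.5 times on the linear scale in at least 1 alternative, and the counts over the list of 103 genes stayed within 1.5 times in all 60 alternative values. The count of members higher in melanocytes was 0 with no filter on low counts, without the library block, with a marker minimum of 10, with the stricter cell filter and with other cell types left out (adjusted p of Lpl from 0.0505 to 0.0772), and 2 with free RNA subtracted. The count lower in RPE was 2 by the DESeq2 test and 3 with the purity filter, and the count lower in macrophages was 3 by the DESeq2 test and 2 without the block, with doublets left out, with the marker minimum of 10 and with other cell types left out. Leaving out each library gave 0.58 to 0.72 for Abca1 endothelial over macrophage, 0.047 to 0.27 for Lpl mural over macrophage, 1.41 to 1.56 for Scarb1 endothelial over RPE and 0.96 to 1.08 for Lrp1 fibroblast over mural. Without the library block the paired Abca1 comparison had an adjusted p of 0.245. Abca4 in fibroblasts over the others turned to 0.23 with free RNA subtracted, and Abca4 in Kera-Thbs4 cells to -0.87 with doublets left out and -1.05 with the purity filter; the cause was not tested. Thinning to 3000 UMIs lowered the mean share of positive cells in the highest class to 88.2% for Apoe, 48.5% for Abca1, 31.6% for Abca4, 22.9% for Lpl, 12.9% for Gpihbp1, 27.9% for Scarb1, 28.1% for Cd36 and 72.5% for Lrp1, which fewer UMIs per cell bring by construction.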

Other observations

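Among the unassigned cells, those marked by rod genes (17 and 44 cells) carried Abca4, which photoreceptors are known to use in their outer segments. It was at 470 and 409 CPM without TMM scaling, from 14 and 50 UMIs in 41.2% and 59.1% of these cells. Scarb1 was at 33.6 and 73.6 CPM in them, from 1 and 9 UMIs. Cells marked by ciliary epithelial genes (3 and 27 cells) also carried Abca4, at 175 and 354 CPM from 2 and 76 UMIs. They had Apoe at 12894 and 14558 CPM. Cells marked by Schwann cell genes (37 and 44) had Apoe at 6702 and 5311 CPM, whereas those marked by T and NK cell genes (43 and 60) had 76.6 and 164 CPM. Cells marked by dendritic cell genes (47 and 62) had Cd36 at 40.3 and 87.9 CPM and Apoe at 38.3 and 65.2 CPM.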
